A study of Mus musculus with 19 samples.

Results

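The semaphorins and their receptors, the plexins and neuropilins, were followed through 3 comparisons of mouse retina in which the transcription factor Pou3f1 was added or knocked out. Members were taken by gene symbol: every semaphorin of classes 3 to 7, every plexin of classes A to D, and both neuropilins. This gave 31 genes, of which 20 are semaphorins (the ligands) and 11 are receptors (9 plexins and 2 neuropilins). All 31 were listed in each of the authors' deposited tables, among 22294 genes in the 48 h table, 23635 in the 14-day table and 35734 in the E17.5 table. An adjusted p was given for 30 of the 31 in each table: Plxnb3 had none at 48 h and at E17.5, and Sema6d had none at 14 days.

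RNA-seq was measured in 19 retina libraries. For overexpression, eyes of wild-type CD1 mice were electroporated in vivo at postnatal day 1 with plasmid DNA, either a Gfp control or Pou3f1, and GFP-positive cells were sorted. Several sorts were combined to reach 150000 cells for each replicate, giving 3 Gfp and 3 Pou3f1 libraries 48 h later, and 4 Gfp and 5 Pou3f1 libraries labelled 14 days (the protocol text gives postnatal day 14 instead). For loss of function, E17.5 embryos of strain C57B6J gave whole-retina samples: 2 libraries heterozygous for a Pou3f1 knockout (HET) and 2 homozygous for it (KO). The HET group keeps an intact copy but is not wild type. The labels describe neither the plasmid's promoter nor the way the knockout allele was made, and the sorted cells are limited to those that took up plasmid. Each table holds a comparison that the authors had already made, summarised gene by gene without library values, so the spread between libraries enters only through the deposited SE and p-values. Nothing in the labels says whether replicates came from separate litters, and the p-values measure the spread between these libraries only.

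Semaphorins are secreted or membrane-bound guidance proteins that steer growing axons, mostly by repulsion, and shape dendrites and synaptic layers. Plexins carry the signal into the cell through a GTPase-activating domain in their cytoplasmic part. Most secreted class 3 semaphorins cannot bind a plexin alone and need a neuropilin as the ligand-binding part of a complex with a class A plexin; Sema3e, which binds Plxnd1 directly, is the known exception. Classes 4, 5 and 6 span the membrane and bind plexins directly, and Sema7a is held by a lipid anchor and binds Plxnc1 and integrins. In the visual system, Sema6d acts with Plxna1 and the adhesion protein Nrcam at the optic chiasm, where retinal axons choose to cross or to stay on their own side, and Nrp1 serves there as a receptor for Vegfa. Within the retina, Sema5a and Sema5b act through Plxna1 and Plxna3 to keep processes of inner retinal neurons in the inner plexiform layer, and Sema6a with Plxna2 and Plxna4 patterns its sublayers. Pou3f1 (Oct6, SCIP) is a POU-domain factor, a class that binds the octamer ATGCAAAT and variants of it. The title of the series places it in the control of retinal projections that cross to the other side of the brain.

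Promoter sequences are shown for 4 members because they bear on whether the octamer lies close to the gene starts: Plxna2 and Sema5b had the lowest fold changes of the 31 genes in knockout retina, and Plxnc1 and Sema4f were the members whose window held the nearest match to the octamer. The sequences are from RefSeq on GRCm38.p6, run 5′ to 3′ on the gene's strand from 250 bases before to 50 bases after a transcription start, and are given in lower case with a match of 7 of the 8 octamer letters, read on either strand, in capitals. The windows are chr1:194619579-194619878 (+ strand) for Plxna2, chr16:35541112-35541411 (+ strand) for Sema5b, chr10:94944796-94945095 (- strand) for Plxnc1 and chr6:82939720-82940019 (- strand) for Sema4f.
Plxna2: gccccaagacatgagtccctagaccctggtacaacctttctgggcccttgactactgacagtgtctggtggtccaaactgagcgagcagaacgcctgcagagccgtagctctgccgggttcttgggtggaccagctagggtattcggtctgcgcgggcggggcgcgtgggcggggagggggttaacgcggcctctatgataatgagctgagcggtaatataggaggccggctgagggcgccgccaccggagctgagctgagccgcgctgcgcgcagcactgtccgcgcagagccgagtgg
Sema5b: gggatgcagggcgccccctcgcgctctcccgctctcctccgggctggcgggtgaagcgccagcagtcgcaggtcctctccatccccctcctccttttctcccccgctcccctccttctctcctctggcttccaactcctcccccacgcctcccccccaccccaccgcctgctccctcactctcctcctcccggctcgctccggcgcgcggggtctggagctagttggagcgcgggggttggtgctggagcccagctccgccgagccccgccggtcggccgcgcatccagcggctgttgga
Plxnc1: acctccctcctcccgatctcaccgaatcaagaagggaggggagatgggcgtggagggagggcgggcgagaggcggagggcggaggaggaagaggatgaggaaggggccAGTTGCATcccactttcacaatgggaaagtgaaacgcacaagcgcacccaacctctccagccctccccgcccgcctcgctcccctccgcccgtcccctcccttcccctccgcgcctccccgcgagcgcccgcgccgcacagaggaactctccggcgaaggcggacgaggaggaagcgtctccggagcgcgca
Sema4f: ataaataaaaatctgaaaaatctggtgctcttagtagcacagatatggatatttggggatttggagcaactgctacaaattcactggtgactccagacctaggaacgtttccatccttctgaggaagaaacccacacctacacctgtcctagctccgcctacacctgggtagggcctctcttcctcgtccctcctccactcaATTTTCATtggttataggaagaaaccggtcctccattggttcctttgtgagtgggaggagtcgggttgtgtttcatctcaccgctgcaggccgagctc
The near-match spans bases 109 to 116 of the Plxnc1 window and bases 203 to 210 of the Sema4f window, in both cases on the strand opposite to the octamer as spelled. RefSeq windows were found for 26 members, 37 windows in all since some genes have several starts; Plxna1, Plxna4, Sema3b, Sema3f and Sema6a had no entry. The exact octamer ATGCAAAT, searched on both strands, was in 0 of the 37 windows and in 570 of all 32851 windows (1.74%). The looser ATGCNAAT, which contains the octamer, was likewise in 0 of the 37, against 3.15% of all windows. A match with at most 1 differing letter occurred in 2 of the 37 windows, against 18.6% of all windows. The members' windows were rich in G and C, with a median of 63.7% against 52.7% over all windows. These letters were searched in a window of 300 bases around each start only, and the search says nothing of sites elsewhere.

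Every fold change, SE, mean count, p-value and adjusted p of a single comparison given here is from the authors' deposited tables. Pou3f1 itself checked the labels. In the authors' deposited tables its log2 fold change was 0.91 ± 0.26 (SE) at 48 h, 1.87-fold (adjusted p = 0.0233), and 5.57 ± 0.27 at 14 days, 47.6-fold (adjusted p = 3.40e-88). At E17.5 it was -0.69, 0.62-fold (adjusted p = 1.98e-08), which is how the sign was read as KO over HET. The deposited name of that comparison puts HET before KO, which could also be read as HET over KO. If the sign were the other way, every direction given for E17.5 would turn. The mean normalized count of Pou3f1, over Pou3f1 and Gfp libraries, was 37278.7 at 48 h and 16971.5 at 14 days, each normalized separately. Its SE of 0.26 at 48 h and of 0.27 at 14 days lie near the largest of any gene, 0.30 at each time, and both folds may be understated. The authors' adjusted p (DESeq2, Benjamini-Hochberg over the genes given one) called a gene when under 0.05. Summed over genes, the mean normalized counts came to 16020800 at 48 h and 38507500 at 14 days, and the deposited SE of the members had a median of 0.21 and 0.17, respectively. All 8 rod marker genes were listed at 14 days with mean counts from 38125 to 1145790, and all 7 progenitor markers at 48 h with mean counts from 678 to 36705. The libraries are bulk samples, in which fewer cells of a type and less RNA per cell cannot be told apart.

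At 48 h after electroporation few members differed from the Gfp control: 1 semaphorin rose, and 1 semaphorin and 1 plexin fell. In the authors' deposited table Sema6c, a transmembrane semaphorin, had a mean normalized count of 648 and rose 1.64-fold in Pou3f1 cells (log2 0.71 ± 0.18, adjusted p = 0.00562). Sema5a, which confines inner retinal processes, had a mean count of 2796 and fell to 0.53-fold (log2 -0.92 ± 0.19, adjusted p = 0.000337). Plxna2, a class A plexin that receives Sema6a, had a mean count of 2869 and fell to 0.56-fold (log2 -0.84 ± 0.18, adjusted p = 0.000391). Of 14714 genes tested, 1.48% were called higher and 1.56% lower, beside 1 of 30 and 2 of 30 members. None of the 3 changes reached 2-fold.

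The remaining 27 members with an adjusted p were not called at 48 h. Their log2 fold changes in the authors' table ran from -0.62 to 0.62, with adjusted p from 0.184 to 0.991, and for 21 of the 27 the 95% interval lay within 2-fold in either direction. These intervals are bounded in width, since no deposited SE at 48 h exceeds 0.30 for any gene, so larger changes are not excluded. The outermost values belonged to genes with low counts: Plxna4 (mean count 153) had -0.62 ± 0.26, and Sema3d, a secreted class 3 ligand (mean count 39.6), had 0.62 ± 0.28. The ligands had a median log2 fold change of -0.10, with 7 of 20 above 0, and the receptors -0.12, with 3 of 10 above 0, beside -0.01 over all tested genes. Whether either side differs from other genes was not tested. Of the genes known at the optic chiasm, Nrp1 had 0.06 ± 0.16, Plxna1 -0.12 ± 0.22, Sema6d 0.53 ± 0.30 and Nrcam -0.02 ± 0.14, with adjusted p from 0.414 to 0.972 in the authors' 48 h table. Sema5b, the partner of Sema5a in the inner plexiform layer, had -0.26 ± 0.16 (adjusted p = 0.480).

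At 14 days 16 of the 30 members with an adjusted p differed between Pou3f1 and Gfp cells, 14 of them higher and 2 lower. The shares of all 17789 tested genes were 11.5% higher and 9.21% lower, beside the members' 46.7% higher and 6.67% lower. Whether the members differ from other genes was not tested. Among the receptors 7 of 11 rose and 0 fell, and among the ligands 7 of 19 rose and 2 fell. The median log2 fold change was 0.51 for receptors and 0.25 for ligands, against -0.01 over all tested genes, and 24 of 30 members (80.0%) were above 0, against 47.8% of all tested genes. Whether receptors rose more often than ligands was not tested.

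**Figure D1:**
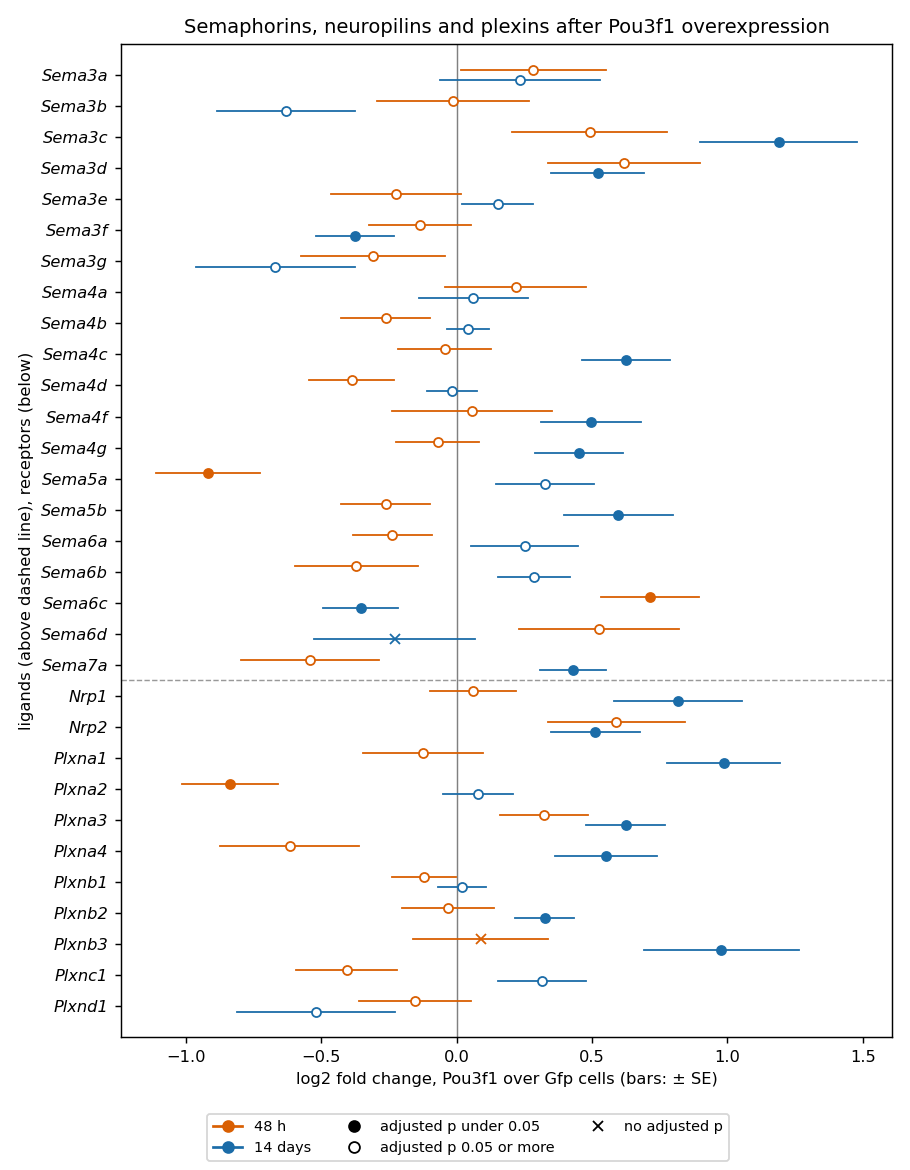
Log2 fold change of each gene in Pou3f1 over Gfp cells (x axis; points, with bars of 1 SE from the authors' deposited tables) at 48 h (orange) and 14 days (blue), ligands above the dashed line and receptors below; filled points have an adjusted p under 0.05. At 48 h 3 points are filled, and at 14 days 16 are, 14 of them to the right of 0.

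Both neuropilins rose at 14 days. Nrp1, the receptor of Sema3a and Vegfa, had in the authors' deposited table a mean count of 629 and rose 1.76-fold (log2 0.82 ± 0.24, adjusted p = 0.00578). Nrp2, the receptor of Sema3f, had a mean count of 741 and rose 1.43-fold (log2 0.51 ± 0.17, adjusted p = 0.0144). Their plexin partners of class A rose in 3 of 4 cases. Plxna1, which serves both Sema6d at the chiasm and the class 5 semaphorins, had a mean count of 1432 and rose 1.98-fold (log2 0.99 ± 0.21, adjusted p = 7.63e-05), with the smallest adjusted p of the 31 genes in this table. Plxna3 rose 1.54-fold (log2 0.62 ± 0.15, adjusted p = 0.000453) at a mean count of 732, and Plxna4 rose 1.47-fold (log2 0.55 ± 0.19, adjusted p = 0.0210) at a mean count of 1068. The fourth, Plxna2, was the most abundant of the class and had a log2 fold change of 0.08 ± 0.13 (adjusted p = 0.724), with a 95% interval from -0.18 to 0.33.

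The other plexin classes were mixed. Plxnb2, which receives Sema4c, rose 1.25-fold at a mean count of 7308 (log2 0.32 ± 0.11, adjusted p = 0.0214 in the authors' table). Plxnb3 was called higher as well (log2 0.98 ± 0.29, adjusted p = 0.00654), but its mean count was only 7.94, the lowest of the members, and it drops out where a mean count of at least 10 is asked. Plxnb1, the receptor of Sema4d, had 0.02 ± 0.09 (adjusted p = 0.914), and its interval from -0.16 to 0.19 is the narrowest bound on any receptor. Plxnc1, the receptor of Sema7a, had 0.32 ± 0.16 (adjusted p = 0.163). Plxnd1, the receptor of Sema3e that is known from blood vessels, had -0.52 ± 0.29 (adjusted p = 0.202) and was the lone receptor below 0.

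Among the secreted class 3 semaphorins, 2 rose and 1 fell of 7. Sema3c rose most of all members, 2.28-fold (log2 1.19 ± 0.29, adjusted p = 0.000754 in the authors' table), at a mean count of 53.5, and was the only member to pass 2-fold. Sema3d rose 1.43-fold (log2 0.52 ± 0.17, adjusted p = 0.0170) at a mean count of 132. Sema3f, the most abundant ligand (mean count 7376), fell to 0.77-fold (log2 -0.37 ± 0.14, adjusted p = 0.0474); with Benjamini-Hochberg over every gene with a p-value its adjusted p was 0.0629 and the call was lost. Sema3b and Sema3g had -0.63 ± 0.25 and -0.67 ± 0.29 without passing the threshold (adjusted p = 0.0600 and 0.0899), and Sema3a and Sema3e had 0.23 ± 0.30 and 0.15 ± 0.13. The class therefore holds genes on both sides of 0. By position, Sema3d, Sema3a, Sema3e and Sema3c lie in that order on chromosome 5 between 12383385 and 17730268 (GRCm38), and the outer pair was called higher while the inner pair was not; Sema3b and Sema3f, with negative values, are near neighbours on chromosome 9 (107597674 to 107609229 and 107681500 to 107710475).

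Class 4 of the membrane-bound ligands gave 3 of the 7 rises among all ligands. Sema4c rose 1.54-fold (log2 0.63 ± 0.16, adjusted p = 0.00185 in the authors' table), Sema4f 1.41-fold (log2 0.50 ± 0.19, adjusted p = 0.0395) and Sema4g 1.37-fold (log2 0.45 ± 0.16, adjusted p = 0.0305). The call of Sema4f was lost with Benjamini-Hochberg over every gene with a p-value (adjusted p = 0.0524). Sema4a, Sema4b and Sema4d had log2 values from -0.02 to 0.06, none called. In class 5, Sema5b rose 1.51-fold at a mean count of 1879 (log2 0.60 ± 0.20, adjusted p = 0.0207), and Sema5a had 0.32 ± 0.18 (adjusted p = 0.198). The lipid-anchored Sema7a rose 1.35-fold at a mean count of 2272 (log2 0.43 ± 0.12, adjusted p = 0.00465).

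Class 6 was the semaphorin class with no rise. Sema6c fell to 0.78-fold (log2 -0.35 ± 0.14, adjusted p = 0.0494 in the authors' table), a call that was lost with Benjamini-Hochberg over every gene with a p-value (adjusted p = 0.0655). Sema6a and Sema6b had 0.25 ± 0.20 and 0.29 ± 0.13, with adjusted p of 0.396 and 0.114. Sema6d, the chiasm ligand, had -0.23 ± 0.30 and was given no p-value at 14 days. Over all classes, the 14 members not called had log2 fold changes from -0.67 to 0.32, and for 11 of them the 95% interval lay within 2-fold. As at 48 h, no deposited SE exceeds 0.30 for any gene, so larger changes are not excluded.

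Markers of several cell types also differed between Pou3f1 and Gfp cells at 14 days, and their part in the members' changes was not tested. All 10 microglia markers rose, with a median log2 fold change of 1.67 and mean counts from 39.1 to 724. Of the rod markers 6 of 8 fell (median -0.51), of the cone markers 4 of 6 fell (median -0.73) and of the Müller glia markers 4 of 7 fell (median -0.42). Progenitor markers rose in 4 of 7 cases (median 0.59), and 3 of 12 retinal ganglion cell markers rose (median -0.09), Pou4f2 by 3.64 ± 0.26 on the log2 scale. Of 6 amacrine markers 1 rose, Gad1 by 0.82 ± 0.26 (list median 0.24), and 0 of 6 bipolar markers were called (median -0.04). Blood vessel markers fell in 2 of 9 cases (median -0.57), beside the value of Plxnd1. At 48 h, where 3 members were called, none of the 5 tested microglia markers were called (median -0.34). Kdr was the called gene among 8 vessel markers (-0.63 ± 0.15, adjusted p = 0.00298), whose median was -0.32. Pecam1 went the other way without a call (0.50 ± 0.25, adjusted p = 0.308). The mean count of Kdr was 11683, against 211 for Pdgfrb and 145 for Pecam1, and which cells its RNA came from was not tested. None of the tables gives values per library, so the range of a marker list within a group cannot be shown.

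In E17.5 retina homozygous for the Pou3f1 knockout, in which Pou3f1 RNA was still read at 0.62-fold of the heterozygous level, 6 members were lower and 0 higher than in heterozygous retina. Plxna2 fell to 0.49-fold (log2 -1.03, adjusted p = 2.50e-19 in the authors' deposited table) and Sema5b likewise to 0.49-fold (log2 -1.02, adjusted p = 1.89e-12), and RNA fell by 51.0% and by 50.5%, respectively. Sema3e, the ligand of Plxnd1, fell to 0.68-fold (log2 -0.56, adjusted p = 0.00595) and Plxna4 to 0.71-fold (log2 -0.50, adjusted p = 0.00460). Smaller falls were called for Sema4g, 0.80-fold (log2 -0.33, adjusted p = 0.0137), and Plxna1, 0.86-fold (log2 -0.22, adjusted p = 0.0163). The table gives no SE and no mean count, so neither an interval nor the depth behind these values is known, and each group had 2 libraries.

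**Figure D2:**
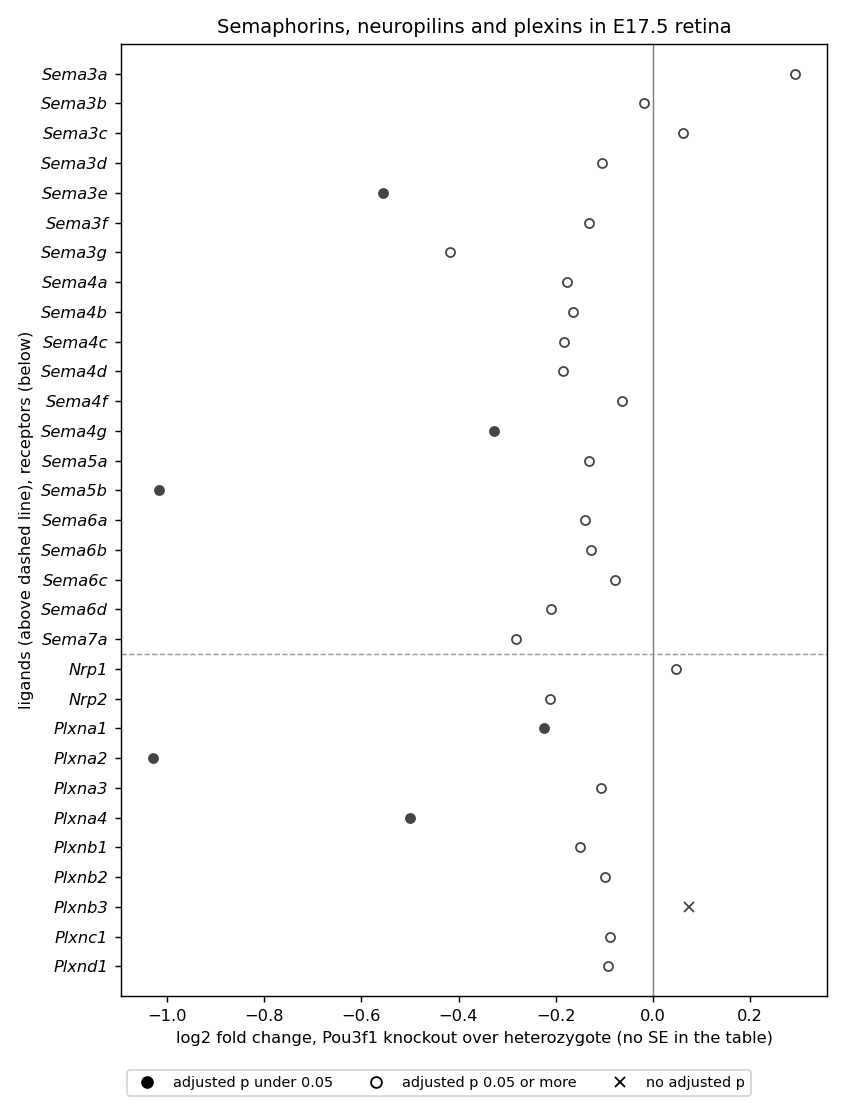
Log2 fold change of each gene in E17.5 retina, Pou3f1 knockout over heterozygote (x axis; the authors' deposited table gives no SE), ligands above the dashed line and receptors below; filled points have an adjusted p under 0.05 and the cross has none. The 6 filled points all lie below 0, with Plxna2 and Sema5b near -1.0 and 27 of the 30 tested genes left of 0.

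The falls were spread over both sides of the signal: 3 of 20 ligands (15.0%) and 3 of 10 receptors (30.0%) were called lower, with 5.34% of the 14821 tested genes lower and 4.70% higher. All 3 receptors called were class A plexins, and the fourth of that class, Plxna3, had -0.11 (adjusted p = 0.494). The median log2 fold change of the 30 members was -0.14, against 0.00 over all tested genes, -0.15 for the ligands and -0.13 for the receptors. Values were below 0 for 27 of 30 members (90.0%) and for 49.2% of all tested genes. At an unadjusted p under 0.05, 14 members were lower and 1, Sema3a, was higher. Sema3a had 0.29 (adjusted p = 0.217). The other members above 0 were Sema3c with 0.06 and Nrp1 with 0.05.

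Other genes of the visual pathway set were not called in the authors' E17.5 table. Sema6d had -0.21 (adjusted p = 0.0900), Nrp1 0.05 (adjusted p = 0.893), Sema3d -0.10 (adjusted p = 0.819), Sema5a -0.13 (adjusted p = 0.571) and Nrcam -0.10 (adjusted p = 0.543). Of Sema6d, Plxna1 and Nrcam at the chiasm, Plxna1 was called lower in KO retina. Of the genes named above for the inner plexiform layer, Sema5b, Plxna1, Plxna2 and Plxna4 were called lower, and Sema5a, Plxna3 and Sema6a were not. The 5 amacrine markers with an adjusted p (Tfap2a, Tfap2b, Gad1, Slc32a1 and Slc6a9) all fell, with a median log2 fold change of -1.01, close to the values of Plxna2 and Sema5b, and 3 of 5 lens or cornea markers rose (median 0.55). Of 12 retinal ganglion cell markers 1 rose and 1 fell (median 0.01). The riser was Pou4f2 (0.35, adjusted p = 0.00321 in the authors' table), which was also higher at 14 days of overexpression. Pou4f3 fell (-0.59, adjusted p = 0.00554). Of 10 blood vessel markers 3 fell (median -0.22), and 0 of 10 microglia markers were called (median -0.28). The part of these cell types in the members' values was not tested.

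The response to added Pou3f1 was compared between the early and late time points as a difference of log2 fold changes, 14 days minus 48 h, with a two-sided z test on the deposited values and SE and Benjamini-Hochberg adjustment over 14580 genes; both comparisons use different libraries. The time points also differ in age, in the number of libraries and in the deposited fold change of Pou3f1 itself. The test takes the deposited SE as they are, although none exceeds 0.30 for any gene at either time. Of 29 members tested, 6 differed upward and 1 downward, beside 4.48% and 1.66% of all genes. Sema5a had the largest upward difference, 1.24 ± 0.26 (adjusted p = 0.000230), from -0.92 at 48 h to 0.32 at 14 days. For the class A plexins the difference was 1.17 ± 0.32 for Plxna4 (adjusted p = 0.00858), 1.11 ± 0.31 for Plxna1 (adjusted p = 0.00928) and 0.92 ± 0.22 for Plxna2 (adjusted p = 0.00187). Sema7a had 0.97 ± 0.28 (adjusted p = 0.0166) and Sema5b 0.86 ± 0.26 (adjusted p = 0.0233). Sema6c went the other way with -1.07 ± 0.23 (adjusted p = 0.000211), from higher at 48 h to lower at 14 days.

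**Figure D3:**
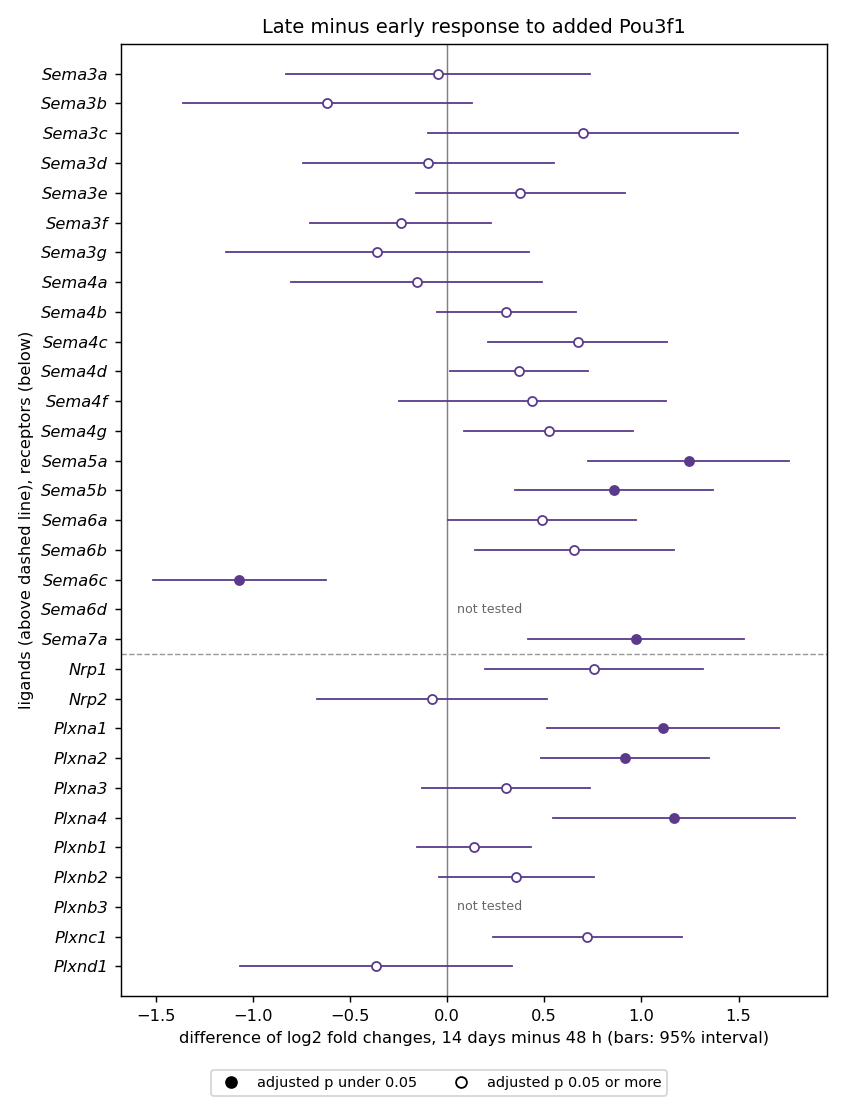
Difference between the log2 fold changes at 14 days and at 48 h for each gene (x axis; points, with bars of the 95% interval from the deposited SE), ligands above the dashed line and receptors below; filled points have an adjusted p under 0.05, and Sema6d and Plxnb3 were not tested. Filled points to the right of 0 are Sema5a, Sema5b, Sema7a, Plxna1, Plxna2 and Plxna4, and Sema6c lies to the left at -1.07.

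The members that differed were not all called at the same time point. Sema5a and Plxna2 were called lower at 48 h and not called at 14 days, and Sema6c was called in opposite directions. Plxna1, Plxna4, Sema5b and Sema7a were called higher at 14 days. Their uncalled values at 48 h were -0.12, -0.62, -0.26 and -0.54, respectively. Whether the courses of these members differ from each other was not tested. The neuropilins did not pass: Nrp1 had 0.76 ± 0.29 (adjusted p = 0.0903) and Nrp2 -0.08 ± 0.30 (adjusted p = 0.930), the latter having similar values at both times (0.59 and 0.51). Plxnc1 and Sema4c missed the threshold with 0.72 ± 0.25 (adjusted p = 0.0548) and 0.67 ± 0.24 (adjusted p = 0.0642). In class 3, 0 of 7 semaphorins differed, with a median difference of -0.10. Over all members the median difference was 0.38, in ligands 0.38 and in receptors 0.54, against 0.03 over all tested genes.

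Set beside each other, the 14-day and E17.5 tables share no library. The overexpression and knockout comparisons also differ in mouse strain, in age and in material (sorted GFP-positive cells against whole retina). Of the 13 members called higher at 14 days and tested in both tables, 4 were called lower in KO retina (30.8%): Plxna1, Plxna4, Sema4g and Sema5b. These 4 make up 66.7% of the 6 members called lower at E17.5. Over all genes tested in both tables the same pair of calls covered 163 of 1881 genes (8.67%) and 163 of 781 (20.9%). Plxna2 showed another combination, lower both at 48 h of overexpression and in KO retina, a pair of calls held by 68 of the 222 genes (30.6%) called lower at 48 h. Sema6c, the 1 member called higher at 48 h, was not called higher at 14 days, while 79 of 217 such genes (36.4%) were. Sema3c and Nrp1, with 1.19 and 0.82 at 14 days, had 0.06 and 0.05 in KO retina.

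**Figure D4:**
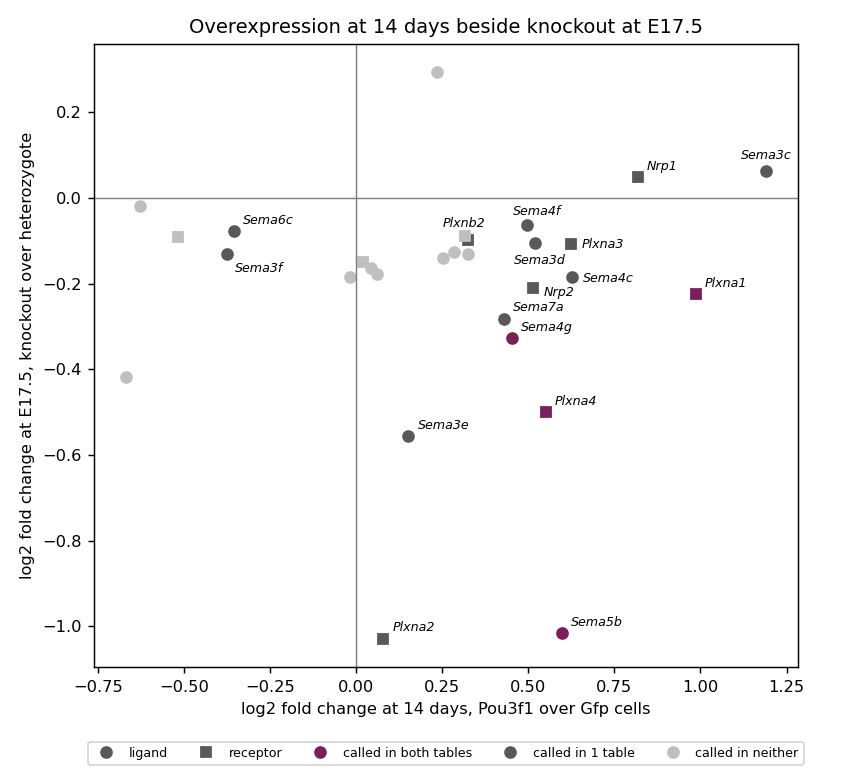
Each gene's log2 fold change at 14 days, Pou3f1 over Gfp cells (x axis), against that at E17.5, knockout over heterozygote (y axis), both from the authors' deposited tables; circles are ligands, squares receptors, and purple marks genes called higher at 14 days and lower at E17.5. The 4 purple genes lie at lower right, Sema5b lowest at -1.02, while Plxna2 lies near 0 on the x axis and at -1.03 on the y axis.

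Levels of the members were compared within each overexpression table as mean normalized count per kb of exon (union of exons, GENCODE M21 on GRCm38), averaged by the authors over Pou3f1 and Gfp libraries. At 48 h the highest levels per kb were those of Plxnb2 (746), Sema3f (499.0) and Plxnb1 (493), and at 14 days those of Sema3f (1419), Plxnb2 (947), Plxna2 (919) and Plxnb1 (821). Plxnb3 was lowest at both times, 0.98 and 1.22 per kb. At 48 h the receptors' median level per kb, 119, was above that of the ligands, 68.8; at 14 days the ligands' median was 107 and the receptors' 92.4. The medians of all tested genes were 104 and 128 per kb. The spread over libraries is not in the tables, so no neighbours in this order can be said to differ, and levels are not compared between the tables, which were normalized separately. The members that rose at 14 days covered the whole scale, from Plxnb3 and Sema3c (7.49 per kb) to Plxnb2; the class 3 ligands Sema3a, Sema3c, Sema3d and Sema3g had under 16 counts per kb in each table.

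**Figure D5:**
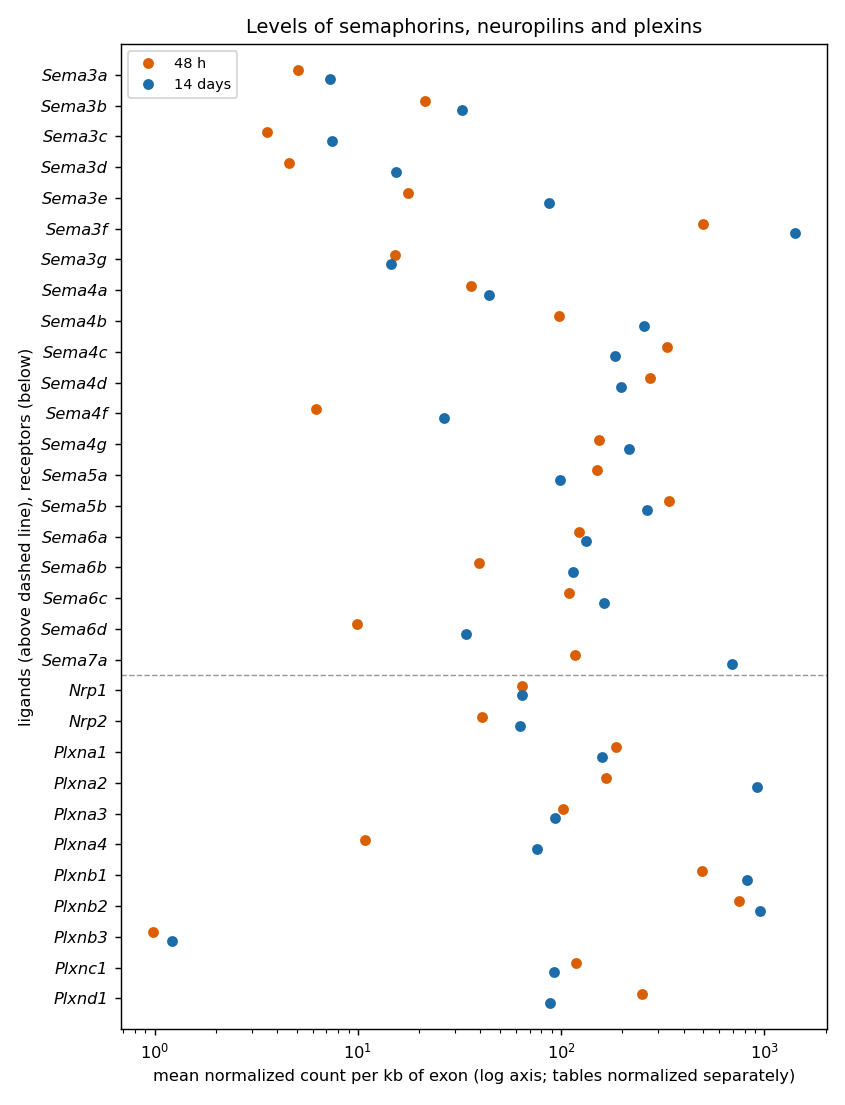
Mean normalized count per kb of exon for each gene (x axis, log scale) at 48 h (orange) and 14 days (blue), averaged by the authors over Gfp and Pou3f1 libraries with no spread given, ligands above the dashed line and receptors below. Plxnb3 lies lowest near 1, and Sema3f at 14 days lies highest at 1419; the tables were normalized separately.

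Exon sequence is shared with another annotated gene in 7 members, and the sources used here do not say whether counting used strand. The largest overlaps are 970 bases (10.7% of exon bases) between Plxna1, at chr6:89316314-89362620 (- strand), and the antisense Gm26811, and 7.27% between Sema4c and D430040D24Rik on the opposite strand. For Plxnb1, Plxna4, Plxnc1, Nrp1 and Sema4a the shared part was between 0.78% and 2.68%. The remaining genes called at E17.5 share no exon base with another gene by this annotation: Plxna2 (chr1:194618218-194816869), Sema5b (chr16:35541145-35664732), Sema3e (chr5:14025276-14256689) and Sema4g (chr19:44989101-45003397), all on the + strand, as are Sema5a (chr15:32244810-32696341) and Sema6c (chr3:95160457-95174024).

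A list of 43 other genes of semaphorin signalling was counted in the same way. At 48 h 1 of 41 with an adjusted p rose and 1 fell, at 14 days 12 of 40 rose and 0 fell, and at E17.5 0 of 42 rose and 7 fell. Over all tested genes 1.48% were higher and 1.56% lower at 48 h. The shares higher and lower were 11.5% and 9.21% at 14 days, and 4.70% and 5.34% at E17.5. Among co-receptors and partner receptors, Cntn2, a contactin of growing axons, rose at 48 h (log2 1.07 ± 0.27, adjusted p = 0.00638 in the authors' table) and at 14 days (1.47 ± 0.19, adjusted p = 7.03e-12) and fell in KO retina (-0.33, adjusted p = 0.0344). Robo1, a Slit receptor that also interacts with Nrp1, rose at 14 days (1.59 ± 0.23, adjusted p = 1.25e-09), and Chl1, an L1-family protein that binds Nrp1, rose at 14 days (0.58 ± 0.14, adjusted p = 0.000427) and fell in KO retina (-0.56, adjusted p = 0.0184). Kdr, a Vegfa receptor, fell at 48 h (-0.63 ± 0.15) and in KO retina (-0.31, adjusted p = 0.000220). Nrcam and Vegfa were called in none of the tables; Nrcam had 0.03 ± 0.13 and Vegfa -0.06 ± 0.17 at 14 days.

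Among the cytoplasmic mediators 8 of 27 rose at 14 days, 4 of 27 fell in KO retina, and 0 of 27 were called at 48 h. Crmp1, a collapsin response mediator that acts downstream of Sema3a, rose at 14 days (log2 0.80 ± 0.17, adjusted p = 9.12e-05 in the authors' table) and fell in KO retina (-0.26, adjusted p = 0.0465). Rnd2, a small GTPase, and Fyn, a kinase of the Sema3a pathway, rose at 14 days with 0.54 ± 0.13 (adjusted p = 0.000617) and 0.47 ± 0.14 (adjusted p = 0.00625). Arhgef11 and Arhgef12, the exchange factors through which class B plexins activate RhoA, fell in KO retina with -0.25 (adjusted p = 0.00914) and -0.30 (adjusted p = 0.0220), as did Mras, a Ras-family GTPase, with -0.28 (adjusted p = 0.00988). Of all tested genes, for comparison, 11.5% were called higher at 14 days and 5.34% lower at E17.5.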

How the data were processed

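RNA-seq of mouse retina was used as 3 comparisons made by the authors. Salmon, DESeq2, MACS2 and the mm10 build are named in the submitters' processing notes; the sources used here give no versions, design formula or filters. Per the file headers, the overexpression tables hold the authors' mean normalized count (a signal averaged over libraries), log2 fold change, its SE, a Wald score, the p-value and the adjusted p; the E17.5 table holds the deposited log2 fold change, p-value and adjusted p. Recomputed Wald scores differed from the deposited ones by at most 4.45e-07 and recomputed Benjamini-Hochberg values by at most 5.60e-06. No deposited SE exceeds 0.30 even for the lowest counts, and no gene with a mean count under 1 has a log2 fold change past 0.28 in size. Values near that SE also occur at higher counts, as for Plxnd1 at 14 days (mean count 645, SE 0.29). Whether the authors shrank the fold changes is not stated, so folds of weakly expressed or variable genes may be understated. The intervals and z tests take these values as deposited. The name of the E17.5 table gives another embryonic day than its sample labels and puts HET before KO. The labels' day is used, and the sign was read from Pou3f1.

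From these values the calls, medians, 95% intervals (1.96 SE) and z tests of the difference were computed (Python 3.11.15, pandas 2.3.3, numpy 2.4.6, scipy 1.17.1, matplotlib 3.10.9); the z test was tested on simulated data. Positions and exon lengths are from GENCODE M21, promoters from RefSeq. Members called in any comparison or in the difference are named, as are up to 6 called pathway genes per comparison by smallest adjusted p and a set known from the visual system. The members and lists were chosen with earlier results of these data known. Proteins were not used here. Alternatives covered the threshold, the set of genes adjusted over, Bonferroni, a fold limit, count limits, centring and the motif.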

Additional observations from a re-analysis of the deposited data

Results flagged for a closer look

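The effect of added Pou3f1 differed between 48 h and 14 days for 7 members, by the z test of the difference itself. On the log2 scale, 14 days minus 48 h, the differences were 1.11 for Plxna1, 0.92 for Plxna2, 1.17 for Plxna4, 1.24 for Sema5a, 0.86 for Sema5b, 0.97 for Sema7a and -1.07 for Sema6c. Sema6c alone was called at both time points, in opposite directions, and its call at 14 days was lost when p-values were adjusted over every gene with a p-value.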

How the results depend on the processing

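Of the 3 members called at 48 h, 2 (Plxna2 and Sema5a) passed Bonferroni and Sema6c did not. Of the same 3, 0 changed at least 2-fold (at an unadjusted p under 0.05, 4 members were higher and 6 lower with no fold limit). Of the 16 called at 14 days, 7 had an adjusted p under 0.01, 1 (Sema3c) changed at least 2-fold and 1 (Plxna1) passed Bonferroni. Of the 6 called at E17.5, 2 (Plxna2 and Sema5b) changed at least 2-fold and 2 passed Bonferroni. With Benjamini-Hochberg over every gene with a p-value 13 were called at 14 days, and with a mean count of at least 10 or 50, 15. The 7 members that differed between 48 h and 14 days numbered 7 after centring, over all genes with an SE and with a mean count of at least 50 in both tables, and 5 at an adjusted p under 0.01. Chosen after seeing the data, centring on genes of like exon length gave median log2 fold changes of -0.05, 0.32 and -0.13 at 48 h, 14 days and E17.5, and centring on genes of like GC content gave -0.11, 0.31 and -0.15. Also chosen then, an adjusted p under 0.1 in both tables added no member to the 4 higher at 14 days and lower at E17.5. That looser limit could not lose any of the 4. Under 0.01, Plxna1 was called at 14 days only, Plxna4 and Sema5b at E17.5 only, and Sema4g at neither. No paired analysis was possible because the tables hold no values per library, and for that reason leaving out libraries was not run. The tables hold mean counts for the overexpression comparisons only, so the depth behind the E17.5 values is unknown.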
